A study of Arabidopsis thaliana with 6 samples.

Results

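Class III peroxidases are secreted heme enzymes of plants, encoded in Arabidopsis thaliana by a large gene family. Of 60 listed loci of this family, 16 had an array probe set of their own and are described here across leaves that received aphid saliva or a control diet. Another 5 loci were read only by 3 probe sets that each cover a pair of loci. The other 39 had no probe set under their name among the 15177 tested and were not analysed here. Of these 15177 probe sets, 6513 had no gene name in the annotation used. In all, 8200 loci had a probe set of their own. The members were chosen by family, and the rule kept the brightest probe set of a locus, which had no effect because each of the 16 had 1. The family was put forward with the saliva contrast already in view, so the differences below are given as a description.

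The saliva samples were leaves of 3-week-old plants of the wild-type Col-0 accession, infiltrated with artificial diet of sucrose and amino acids on which green peach aphids (Myzus persicae, a tobacco-adapted red lineage) had fed for 24 h. The control samples were leaves of the same age and accession that received diet from cups with 0 aphids. Each sample pooled 18 leaves from 6 plants, frozen 24 h after infiltration per the source labels, and saliva and control plants shared pots. The experiment was done 3 times, which gave 3 saliva and 3 control samples, each hybridised to 1 Affymetrix ATH1 array.

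Class III peroxidases act mostly in the cell wall and vacuole. With hydrogen peroxide they oxidise phenolics such as monolignols, which polymerise into lignin, and they can cross-link wall proteins and so stiffen a wall. Some can instead make hydrogen peroxide, and they contribute to the oxidative burst that follows microbial patterns. Family members are numbered PRX in the order of their loci. Many of them are transcribed more in roots than in leaves.

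Values are normalized intensities on a log2 scale, and a difference is saliva minus control within a repeat, so 1 unit is a 2-fold difference. Each probe set has its own response, so levels are not compared between genes. In bulk leaves, fewer cells of a type and less RNA per cell cannot be told apart. Median intensities of the 6 arrays lay between 139.2 and 146.8 on the linear scale. Of 10 leaf photosynthesis markers 4 were measured, at log2 levels of 13.60 to 14.85, and their summed intensity ran from 84307 to 88171 on saliva arrays and from 88440 to 93741 on control arrays, without overlap. Singly, PSAN and PSBW did not overlap between the groups, with differences of -0.15 and -0.091, while LHCB4.1 (-0.070) and RCA (0.000875) did. Of all probe sets at a mean log2 of 6 or more, 10.4% were lower after saliva without overlap. The part of the leaf markers in the differences below was not tested. The guard cell marker FMA, 1 of 3 listed, lay between 5.47 and 6.26. None of 6 xylem, 4 phloem, 5 root and 4 flower markers had a named probe set of its own, so their part in any difference was not tested.

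The differences went both ways. At an adjusted p under 0.05 in the paired limma fit, 0 of the 16 members passed, as did 0 (0%) of all 15177 probe sets in each direction. At an unadjusted p under 0.05 there were 4 members, beside 1674 probe sets (11%) overall. Saliva exceeded control in all 3 repeats for 4 members (background 16.7%) and was below it in all 3 for 5 (background 15.6%), and the other 7 were mixed. With replicate 1, 2 or 3 left out, 7, 4 and 6 members were higher in all remaining repeats, and 5, 6 and 5 were lower. The share of all probe sets was not computed for these settings, so these counts have no background here. The 2 groups did not overlap for 2 members that were higher after saliva (background 7.66%) and 2 that were lower (background 8.58%). Nothing is read from these shares, since the contrast was in view when the family was chosen. The median difference over the 16 members was 0.017, beside -0.00056 over all probe sets, and it was 0.0013 with median centring and 0.070 without replicate 3. The median size of the difference, whatever its sign, was 0.19 over the members and 0.11 over all probe sets.

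**Figure D1:**
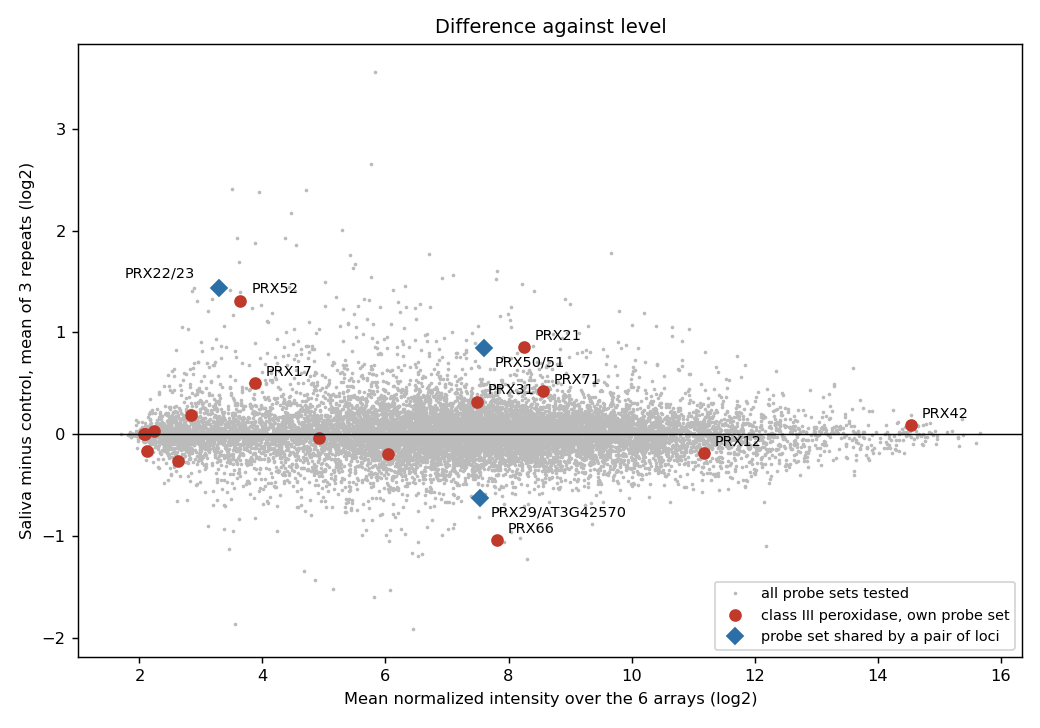
Mean saliva minus control difference (log2, vertical axis) against the mean normalized intensity over the 6 arrays (log2, horizontal axis) for all 15177 probe sets tested (grey), the 16 peroxidases with their own probe set (red circles) and the 3 probe sets shared by a pair of loci (blue diamonds). PRX66 lies at -1.05 on the lower side, PRX52 at 1.31 and PRX21 at 0.86 on the upper side.

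Many of the measured members were dim. Of the 16, 8 had a mean log2 level under 4, beside 17.3% of all probe sets, 1 lay between 4 and 6, and 7 were at 6 or above. Among these 7, 2 were higher in all repeats (background 18.6% of the 10141 probe sets at 6 or above) and 3 were lower (background 18%). Their groups did not overlap for 1 higher member (background 8.99%) and 2 lower ones (background 10.4%). The array minimum was 3.23 to 3.28 in linear units, and the dimmest members had values near it, so a difference between such values says little about the transcript.

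**Figure D2:**
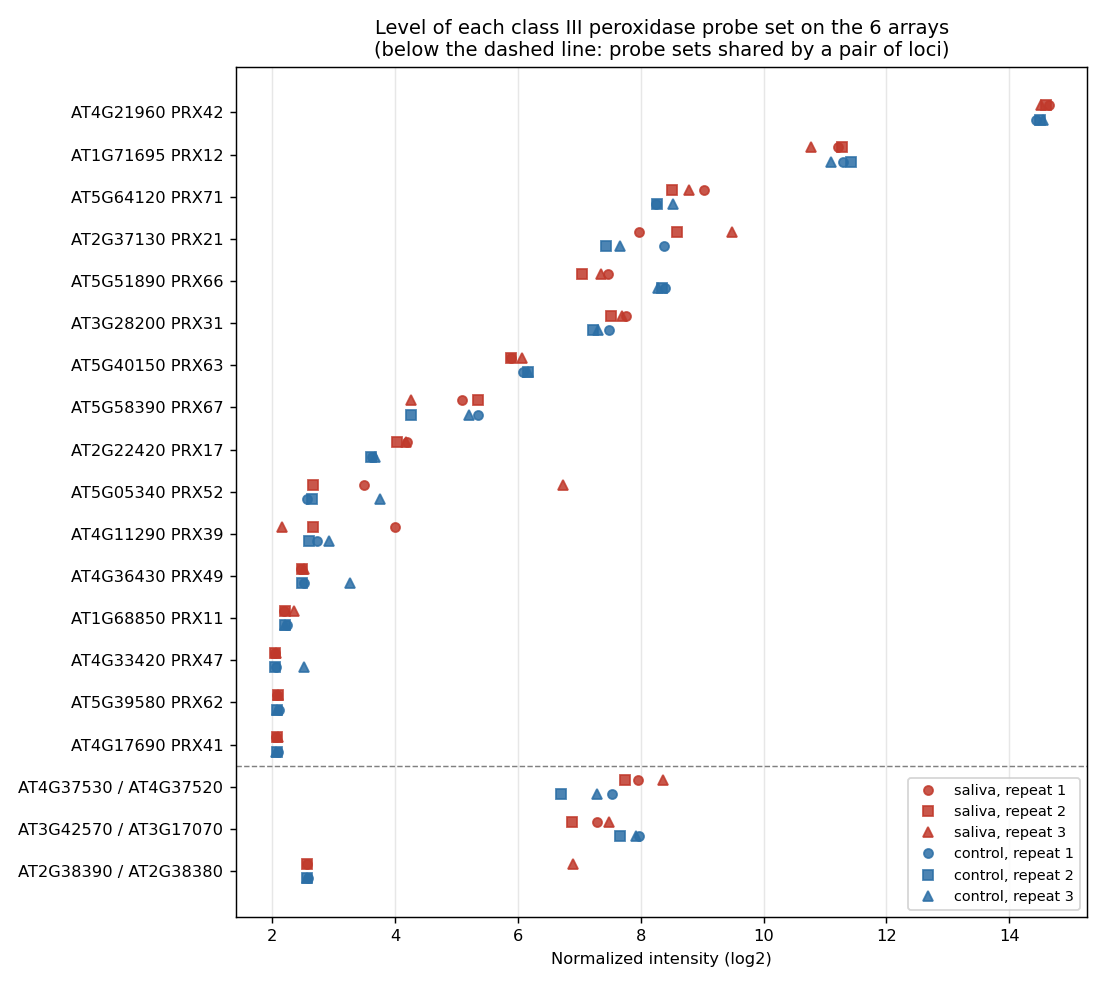
Normalized intensity (log2) of each peroxidase probe set on the 3 saliva arrays (red) and the 3 control arrays (blue), with 1 marker shape per repeat, sorted by mean level. PRX66 has its saliva points at 7.05 to 7.47, left of its control points at 8.28 to 8.39, while PRX41, PRX47, PRX62 and PRX11 stay at or below 2.52 on every array.

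Among genes tied to lignin, AT5G51890 (PRX66), which is transcribed in forming xylem vessels, was lower after saliva. Its log2 levels were 7.47, 7.05 and 7.36 in saliva repeats 1, 2 and 3, against 8.39, 8.34 and 8.28 in the control repeats. On the linear scale these were 177, 132 and 164 after saliva, against 337, 323 and 310.3 in controls. The groups did not overlap, and the SD was 0.22 among the saliva arrays and 0.059 among the controls, which were close together. The difference averaged -1.05 ± 0.21 (SD, n = 3 repeats), a level 2.06-fold higher in control leaves, with a standard error of 0.11. It was the 17th lowest of the 15177 mean differences. The limma adjusted p was 0.338, and it ran from 0.164 to 0.789 over the alternative settings, so the gene did not pass. Its unadjusted limma p was 0.00045. In the main fit 0.338 was the lowest adjusted p of any probe set, and AT2G22420 (PRX17) had the same value at an unadjusted p of 0.0022. The authors' deposited table gives PRX66 a fold of 0.488, a paired false discovery rate of 0.0212 and an unpaired rate of 0.164. Without the replicate block, the limma adjusted p of PRX66 was also 0.164. Why the paired values differ, 0.338 here against 0.0212, was not tested.

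AT2G22420 (PRX17), which takes part in forming lignified tissue of the stem, was dim but separated. Its levels were 4.20, 4.03 and 4.17 after saliva, against 3.62, 3.60 and 3.67 in controls, with no overlap. The difference was 0.50 ± 0.073 (SD, n = 3 repeats; limma adjusted p = 0.338), and the authors' deposited table gives a paired rate of 0.0225 and an unpaired rate of 0.167. Its control intensities of 12.3, 12.1 and 12.7 were near the dim end of the scale.

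AT5G64120 (PRX71), known for lignin formation, for restraining growth and for induction by microbial patterns and by damage to the wall, stood at 9.02, 8.51 and 8.79 after saliva, against 8.25, 8.27 and 8.53 in controls. Saliva was higher within each repeat, but saliva repeat 2 lay below control repeat 3, so the groups overlapped. The difference was 0.43 ± 0.30 (SD, n = 3 repeats; limma adjusted p = 0.415), made of 0.77 in repeat 1 and of 0.25 and 0.26 in repeats 2 and 3, and it was 0.26 without replicate 1.

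AT5G05340 (PRX52), which acts in the making of syringyl-rich lignin in stem fibres, had 3.49, 2.67 and 6.73 after saliva, against 2.56, 2.65 and 3.74 in controls. Saliva repeat 3 stood far above the other 5 arrays, control repeat 3 came next, and repeat 2 showed almost no difference. The difference of 1.31 ± 1.52 (SD, n = 3 repeats; limma adjusted p = 0.506) was 0.48 without replicate 3. On the saliva repeat 3 array, 16 probe sets were under 4 on the 5 other arrays and at least 2 log2 units above each of them, PRX52 among them. That number was 0 on saliva repeats 1 and 2, and 0, 1 and 0 on control repeats 1, 2 and 3. Its part in the PRX52 value was not tested.

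Both remaining lignin-linked members were near the bottom of the scale. AT4G11290 (PRX39), which works with other peroxidases in the lignin of the root Casparian strip, had 3.99, 2.66 and 2.16 after saliva, against 2.73, 2.59 and 2.92 in controls, so its mean of 0.19 ± 1.02 joins opposite signs and turned to -0.35 without replicate 1. AT4G33420 (PRX47), linked to xylem vessels like PRX66, stayed between 2.04 and 2.06 after saliva, against 2.06, 2.05 and 2.52 in controls. Of the 12 listed lignin-linked members 6 were thus measured, 3 higher in all repeats (background 16.7%), 2 lower (background 15.6%) and 1 mixed, with 0 past the adjusted threshold. Nothing is read from these counts either. The median difference of the 6 was 0.31, and it was 0.012 without replicate 1, 0.38 without replicate 2 and 0.49 without replicate 3, a comparison added after seeing the data. The other 6, PRX3, PRX4, PRX9, PRX25, PRX64 and PRX72, were not analysed here.

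**Figure D3:**
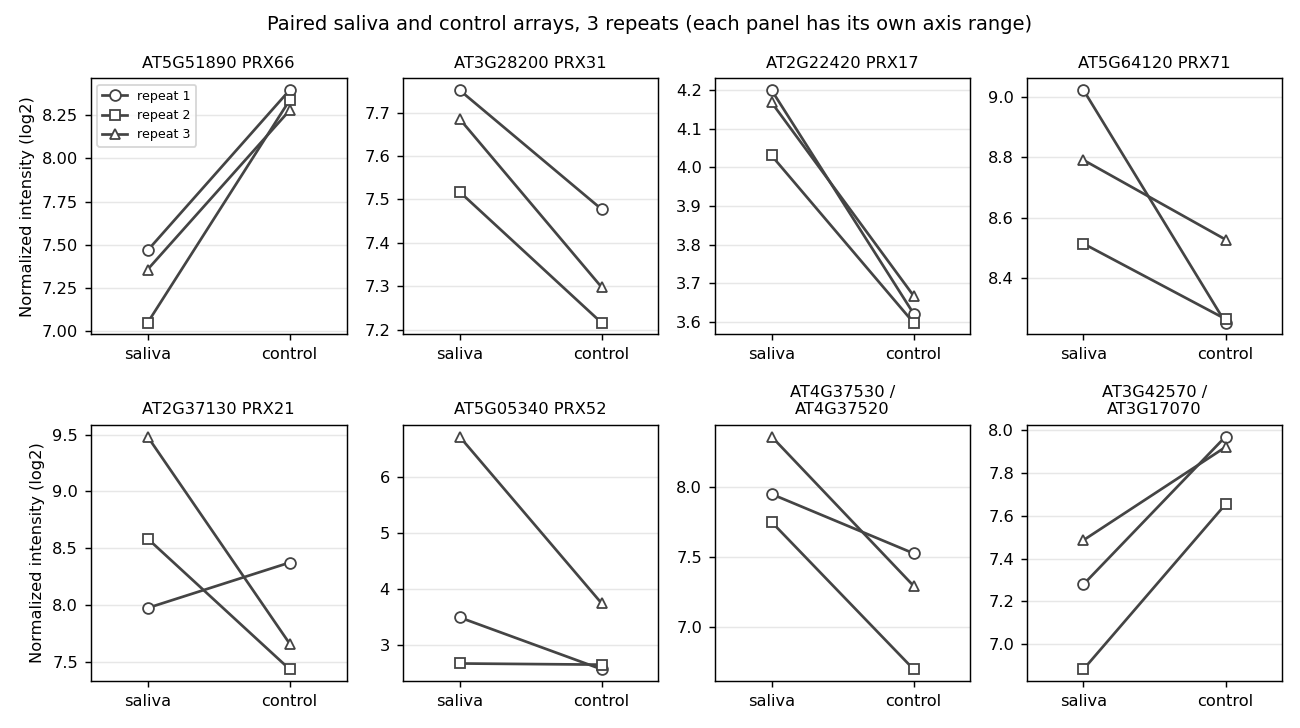
Normalized intensity (log2) of 8 probe sets on the saliva array (left) and the control array (right) of each repeat, joined by a line, with an axis range of its own in each panel. PRX66 and the AT3G42570 / AT3G17070 probe set are below control in each repeat, PRX31, PRX17, PRX71 and the AT4G37530 / AT4G37520 probe set are above it, and PRX21 crosses, with repeat 1 going the other way.

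The other members at a log2 level of 6 or more have less settled roles. AT3G28200 (PRX31) had 7.75, 7.52 and 7.69 after saliva, against 7.48, 7.22 and 7.30 in controls. The lowest saliva array was just above the highest control array. Its difference of 0.32 ± 0.059 (SD, n = 3 repeats; limma adjusted p = 0.358) was small and had a narrow spread, smaller than that of all but 12.3% of probe sets. The authors' deposited table gives it a paired rate of 0.0440 and an unpaired rate of 0.334. With PRX66 and PRX17 it makes 3 of the 16 members with a paired rate under 0.05 in that table, beside 463 probe sets (3.05%) overall. In the authors' deposited table, an unpaired rate under 0.05 is given for 0 of the 16 members and 0 of all probe sets.

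AT2G37130 (PRX21) had 7.97, 8.58 and 9.48 after saliva, against 8.37, 7.43 and 7.66 in controls. Saliva was higher in repeats 2 and 3 and lower in repeat 1, and the control of repeat 1 was the highest control. Its difference of 0.86 ± 1.14 (SD, n = 3 repeats; limma adjusted p = 0.555) varied between repeats more than that of 99.6% of probe sets. The raw file names in the labels set repeat 1 apart from repeats 2 and 3. Within repeat 1 the difference was -0.40, and the mean of repeats 2 and 3 was 1.49 (limma adjusted p = 0.379 in that fit, with a range of 0.379 to 0.911 over the alternatives). Without replicate 3 the mean was 0.38. Whether the file name sets have a part in this was not tested.

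AT1G71695 (PRX12) had 11.21, 11.28 and 10.77 after saliva, against 11.29, 11.43 and 11.09 in controls. Each saliva array was below its own control, yet the groups overlapped because repeat 3 was low in both. The difference was -0.19 ± 0.12 (SD, n = 3 repeats; limma adjusted p = 0.513), and -0.12 without replicate 3. AT5G40150 (PRX63) had 5.89, 5.88 and 6.06 after saliva, against 6.08, 6.16 and 6.17 in controls, a difference of -0.19 ± 0.087 with groups that narrowly did not overlap (limma adjusted p = 0.474).

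AT4G21960 (PRXR1, PRX42) was bright on every array and differed little between the groups. Its levels were 14.64, 14.59 and 14.51 after saliva, against 14.43, 14.49 and 14.55 in controls. The difference was 0.09 ± 0.13 (SD, n = 3 repeats; limma adjusted p = 0.761), with a negative value of -0.045 in repeat 3.

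Between these and the dim members lay AT5G58390 (PRX67), at 5.09, 5.35 and 4.25 after saliva, against 5.34, 4.26 and 5.19 in controls. A low value near 4.25 occurred once in each group, in different repeats. Its differences of -0.26, 1.09 and -0.94 cancelled to a mean of -0.04 ± 1.03 (limma adjusted p = 0.9997). Its neighbour on the chromosome, AT5G58400 (PRX68), and the neighbour of PRX71, AT5G64110 (PRX70), are other class III peroxidases outside the list, and whether their transcripts add to these signals was not tested.

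The other dim members carried little difference. AT4G36430 (PRX49) stood at 2.47, 2.48 and 2.52 after saliva, against 2.52, 2.48 and 3.26 in controls. Only control repeat 3 was high, and the mean difference of -0.26 ± 0.41 became -0.028 without replicate 3. AT1G68850 (PRX11) ran from 2.19 to 2.35 after saliva, against 2.20 to 2.24 in controls. AT5G39580 (PRX62), which acts in root hair growth in the cold, ran from 2.07 to 2.10 in both groups, and AT4G17690 (PRX41) from 2.06 to 2.08 after saliva, against 2.06 to 2.09 in controls. PRX62 was the 1 measured member of 6 linked to root hairs and of 5 linked to anthers and seeds.

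**Figure D4:**
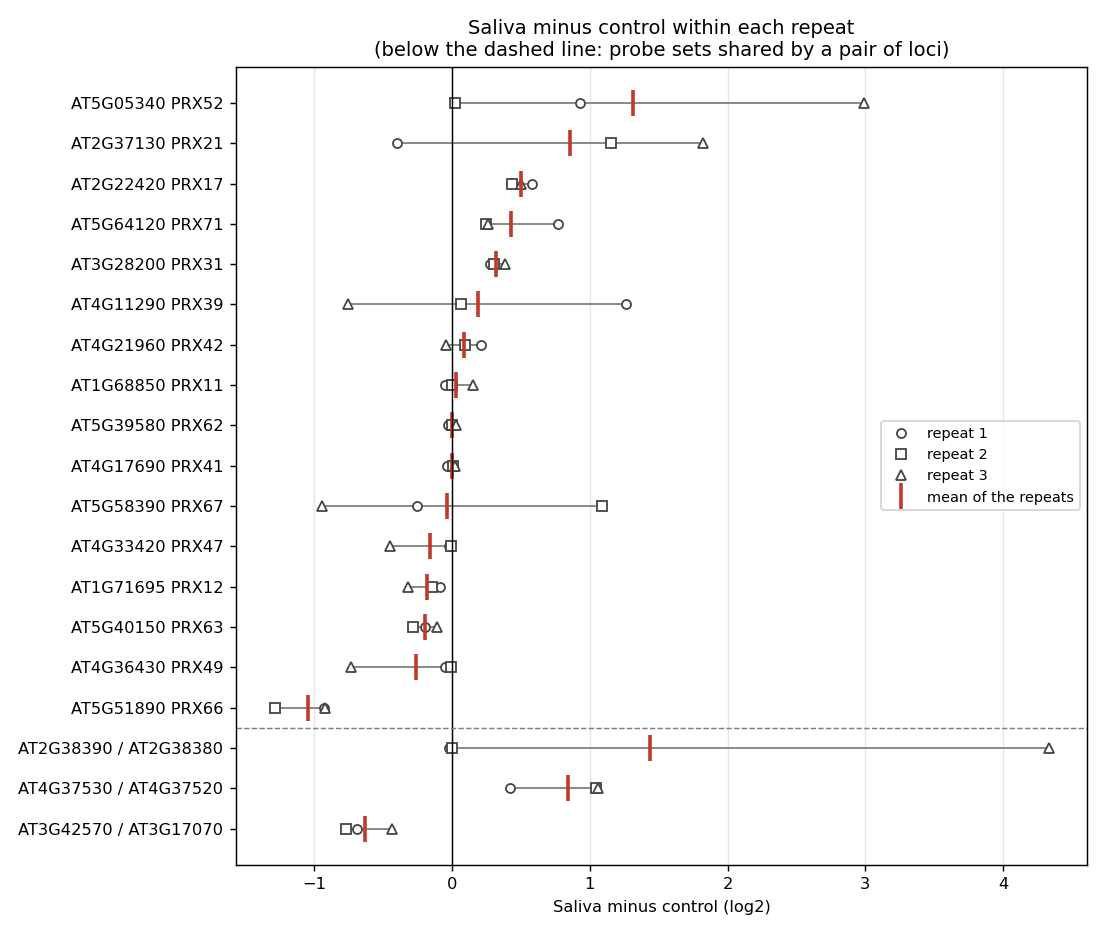
Saliva minus control (log2) within repeats 1, 2 and 3 (open symbols) and their mean (red bar) for the 16 peroxidases and, below the dashed line, the 3 shared probe sets. PRX66 has all 3 repeats between -1.29 and -0.92, PRX31 and PRX17 have narrow positive ranges, and PRX52, PRX21, PRX39, PRX67 and the AT2G38390 / AT2G38380 probe set spread widely between repeats.

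The 3 shared probe sets cannot be assigned to 1 gene. AT4G37520 and AT4G37530 (PRX50 and PRX51) are neighbours on the chromosome and share a probe set at 7.95, 7.75 and 8.36 after saliva, against 7.52, 6.70 and 7.29 in controls. The groups did not overlap, and repeat 2 had the lowest value in both. The difference was 0.84 ± 0.37 (SD, n = 3 repeats; limma adjusted p = 0.338), with 0.42 in repeat 1 and a mean of 1.06 in repeats 2 and 3. The authors' deposited table gives it a paired rate of 0.0502 and an unpaired rate of 0.329.

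AT3G17070 (PRX29) shares a probe set with AT3G42570, a locus outside the list, at 7.28, 6.88 and 7.49 after saliva, against 7.97, 7.65 and 7.92 in controls. All saliva arrays were below all control arrays. The difference was -0.63 ± 0.18 (SD, n = 3 repeats; limma adjusted p = 0.338), 1.55-fold higher in control leaves, and the authors' deposited table gives a paired rate of 0.0379 and an unpaired rate of 0.298.

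The neighbours AT2G38380 and AT2G38390 (PRX22 and PRX23) share a probe set at 2.56, 2.57 and 6.89 after saliva, against 2.59, 2.57 and 2.56 in controls. Saliva repeat 3 alone was high, at an intensity of 119 against 5.9 to 6.0 on the other 5 arrays, so the mean difference of 1.44 ± 2.51 (SD, n = 3 repeats; limma adjusted p = 0.649) rests on 1 array. It is among the 16 probe sets that stood out on that array alone. The fold of 7.33 in the authors' deposited table is a ratio of linear group means and rests on the same array.

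Of the 5 listed members with a known part in the immune oxidative burst, PRX71 was the 1 measured. PRX33 and PRX34, the best studied of them, and PRX4 and PRX5 were not analysed here. The partners of the peroxidases were also sparsely covered. None of 10 NADPH oxidases, which make superoxide at the plasma membrane, of 17 laccases, which also polymerise monolignols, and of 7 superoxide dismutases had a named probe set of its own. Whether some of them are read by the 6513 probe sets without a gene name was not tested.

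Of 19 monolignol synthesis genes 1 was measured, HCT (AT5G48930), the hydroxycinnamoyl transferase of the pathway. It had 9.68, 9.71 and 9.68 after saliva, against 9.86, 9.75 and 10.04 in controls. Saliva was lower in each repeat and the groups did not overlap, with a difference of -0.19 ± 0.16 (SD, n = 3 repeats; limma adjusted p = 0.527). Of 11 hydrogen peroxide removal genes 2 were measured. TAPX (AT1G77490), the thylakoid ascorbate peroxidase, had 10.29, 10.39 and 10.17 after saliva, against 10.54, 10.79 and 10.49 in controls, a difference of -0.32 ± 0.075 (limma adjusted p = 0.364) without overlap. SAPX (AT4G08390), the stromal form, ran from 8.36 to 8.47 after saliva, against 8.08 to 8.67 in controls, a difference of 0.0072 ± 0.36. Of these 3 genes 0 passed the adjusted threshold. The lack of overlap of HCT and TAPX stands beside 10.4% of all probe sets at a mean log2 of 6 or more that were lower without overlap.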

How the data were processed

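RNA of 3 saliva and 3 control leaf samples was measured on 1-colour ATH1 arrays. The authors deposited normalized linear intensity values. GCRMA, GCOS and limma are named per the submitters' processing notes, while settings and a genome build are not given in the sources used here. A fold change, equal to a ratio of linear group means to within 0.173%, and a paired and an unpaired false discovery rate (an adjusted p-value each) were also deposited. Array values in both deposited tables were identical, and 0 sample columns were left unused.

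Here, log2 was taken without a pseudocount, and 15177 probe sets (59 controls left out) were fitted with limma 3.58.1 (R 4.3.3). The model had treatment and a block for the replicate number, which follows the shared pots in the labels' protocols, and Benjamini-Hochberg adjustment ran over the whole table. The fit was run on simulated data with independent noise, no replicate effect and no floor at low intensity. Such a run cannot check the block or the dim members. Deviations from the group mean correlated at -0.12, 0.15 and 0.10 within pairs 1, 2 and 3. Between saliva and control arrays of different repeats they correlated at -0.18 to 0.095, a range that holds the value of pair 1. The matching of arrays by replicate number was taken from the sample titles. No 2 arrays shared more than 2.12% of their values, and the number of arrays limits the precision.

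The probe annotation named 1 gene for 8330 probe sets, several for 334 and none for 6513, and 8298 of the 8330 matched a locus of RefSeq's TAIR10.1 table. Members, gene lists and the naming rule were chosen with earlier results of these data known. The rule took members at a mean log2 of 6 or more that went 1 way in all repeats, the 6 brightest, those with an authors' paired rate under 0.05, neighbouring pairs and the 4 largest differences among dimmer members. Alternatives were no block, a log2 floor of 4, an intensity trend, quantile normalization, median centring, each repeat left out, the mean of a locus's probe sets and an unadjusted threshold.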

Additional observations from a re-analysis of the deposited data

How the results depend on the processing

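The counts of probe sets past an adjusted p under 0.05, higher and lower, and the count of members past it were 0 in every fit run (no replicate block: 0, 0 and 0). At an unadjusted p under 0.05 they were 848, 826 and 4, a looser threshold by construction. Of the members, 4 were higher and 5 lower in all repeats. With the floor at a mean log2 of 4, which leaves out 8 of the 16, these were 2 and 3. They were 3 and 5 with median centring and 4 and 4 with quantile normalization. With a repeat left out they ran from 4 to 7 and from 5 to 6, over fewer repeats by construction. The share of all probe sets was not computed for the settings with a repeat left out. The median member difference of 0.017 ran from 0.021 to 0.070 with a repeat left out, and was 0.0013 with median centring, 0.015 with quantile normalization and 0.025 with the floor. The median over the 11 named members, 0.19, ran from 0.025 to 0.29 with a repeat left out. It was 0.18 with quantile normalization, 0.18 with median centring and 0.088 with the floor, which leaves out the named members under 4. The 11 were named partly by these same differences, so nothing about the family is read from their median. The median of the 6 lignin-linked members, 0.31, ran from 0.012 to 0.49 with a repeat left out, a setting added after the data were seen. Over the 95 alternative values of the named members 1 turned, PRX39 (AT4G11290), to -0.35 without replicate 1 (0.67 without replicate 3). Many of the 95 could not turn. Leaving out the block, the intensity trend, the floor and the mean over probe sets keep each difference the same by construction. PRX66 kept between -1.11 and -0.92, PRX17 between 0.47 and 0.54, PRX31 between 0.29 and 0.34 and PRX63 between -0.24 and -0.15. PRX21 ran from 0.38 to 1.49, PRX52 from 0.48 to 1.96, PRX71 from 0.26 to 0.52 and PRXR1 from 0.025 to 0.15; the cause was not tested. Each of the 16 members had 1 probe set, so the mean over probe sets gave the same values. Low signal limits the fold changes of the dim members.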
